A study of Mus musculus with 6 samples.

Results

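The complement genes described here are 9 of the 56748 genes in the deposited expression table, chosen by name. They are the anaphylatoxin receptor genes C3ar1, C5ar1 and C5ar2, the alternative pathway genes C3, Cfb and Cfp, and the C1q subunit genes C1qa, C1qb and C1qc. All of them were found, each as a single row. Their transcripts were measured by RNA sequencing in the mouse line RAW264.7, which resembles macrophages, with 3 libraries from cells infected with a lentivirus carrying Fbxw11 (the vector pMSCV-Fbxw11-pGk-GFP) and 3 from cells infected with a control vector, whose libraries are named for GFP. Cells of both groups were sorted before RNA extraction. The labels name no stimulus, do not say what the control vector holds, and do not say whether libraries of a group came from separate infections or cultures, so p-values rest on a spread that may be technical. By its title, the series asks how Fbxw11, the gene of an F-box substrate receptor of the SCF ubiquitin ligase (β-TrCP2), bears on macrophage polarization.

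Complement is a cascade of proteases and opsonins that tags microbes and dying cells for uptake. C1q starts the classical pathway, factor B supplies the protease of the alternative pathway convertase, properdin stabilises that convertase, and both routes cleave C3, the central component. The cleavage fragments of C3 and C5 act as anaphylatoxins through G protein-coupled receptors on myeloid cells, and macrophages are known both to carry those receptors and to make several components themselves.

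Of the 9 genes, 3 were abundant and rose in the Fbxw11 libraries: C5ar1 by 1.62-fold, C3ar1 by 1.35-fold and Cfp by 1.19-fold. These 3 were the only members in the main test, and 4.6% of all 10898 genes tested rose. The call of Cfp was lost without control library 1 or control library 2. C3 was low and 1.496-fold higher in the Fbxw11 libraries, but it lay under the filter and did not pass where it was tested with a lower one. Cfb and C5ar2 were present as a few reads per library, and C1qa, C1qb and C1qc had 0 reads in all 6 libraries. Levels are FPKM, fragments scaled by gene length and library size, so genes can be compared with each other per length. FPKM is given as mean ± SD (n = 3 libraries), and log2 fold changes carry their standard error (SE).

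The promoters of the 3 genes that rose are shown because these genes moved in the same direction. They run from 250 bases before to 50 bases after the annotated start, 5′ to 3′ on the strand of the gene, from RefSeq on GRCm38.p6. C3ar1 lies at chr6:122856108-122856407 on the minus strand, C5ar1 at chr7:16259289-16259588 on the minus strand and Cfp at chrX:20931506-20931805 on the minus strand. Capitals mark matches, on either strand, to any of 4 motifs that were searched.
C3ar1: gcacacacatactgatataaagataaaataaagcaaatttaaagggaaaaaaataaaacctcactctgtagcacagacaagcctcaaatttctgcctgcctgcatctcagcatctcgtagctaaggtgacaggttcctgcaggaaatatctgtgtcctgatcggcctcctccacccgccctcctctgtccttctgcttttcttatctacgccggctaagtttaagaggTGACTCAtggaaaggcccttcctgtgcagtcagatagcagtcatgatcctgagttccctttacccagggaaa
C5ar1: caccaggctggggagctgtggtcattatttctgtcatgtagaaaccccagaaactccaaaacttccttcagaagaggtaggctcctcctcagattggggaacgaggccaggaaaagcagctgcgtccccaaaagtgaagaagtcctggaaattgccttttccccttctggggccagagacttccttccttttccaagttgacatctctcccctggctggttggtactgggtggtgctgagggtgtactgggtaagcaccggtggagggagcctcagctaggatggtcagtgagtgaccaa
Cfp: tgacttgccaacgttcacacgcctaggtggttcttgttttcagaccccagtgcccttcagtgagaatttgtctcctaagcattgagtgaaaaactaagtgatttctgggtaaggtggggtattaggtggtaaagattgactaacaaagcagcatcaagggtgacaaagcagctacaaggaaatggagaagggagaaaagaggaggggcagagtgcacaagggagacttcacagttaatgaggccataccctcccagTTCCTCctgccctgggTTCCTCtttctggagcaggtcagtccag
The motifs were GGGA and CC with any 4 bases between them for NF-kB, TGACTCA for AP-1, GAGGAA for the core bound by the macrophage factor PU.1, and GAAA repeated after any 2 bases for the interferon-stimulated response element. No matches overlapped in these 3 promoters. The C3ar1 promoter held a single AP-1 match, 22 bases before the start, a motif present in 5.20% of 32851 promoters of the same length. The Cfp promoter held 2 PU.1 core matches, 7 and 23 bases into the transcript, and 28.3% of all promoters held at least 1. The C5ar1 promoter held no match to any of the 4. NF-kB matches were present in 20.7% of all promoters and interferon-stimulated response element matches in 3.44%, and the promoters of C3ar1, C5ar1 and Cfp held neither. The 3 promoters shared no motif among those searched. Among members not called as rises, the promoters of C1qb, C1qc and C5ar2 also held PU.1 core matches. NF-kB matches lay in those of C1qb, C1qc, C5ar2 and C3. For C5ar2 these were in different promoter entries of the gene. Whether matches follow level or change was not tested. A match is a run of letters and not a measured binding site.

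Recovered reads, the whole numbers behind the FPKM values, summed to between 16191971 and 18951653 per library. Fbxw11 itself was 7.51-fold higher in the Fbxw11 libraries (36.1 ± 0.409 against 271 ± 2.74 FPKM), with reads of the vector and of the endogenous gene not told apart. Of 10 macrophage markers, 9 reached 1 FPKM and Mertk was at or near 0. Their summed level was 4446 to 4616 FPKM in control and 4931 to 5068 FPKM in Fbxw11 libraries, and of the 9 tested, 5 rose (Adgre1, Lyz2, Fcgr1, Mpeg1 and Itgam, which is also a complement receptor gene below), beside 4.6% of all genes tested. The other 4 (Cd68, Spi1, Cd14 and Csf1r) were not called. Spi1 and Cd14 were higher in every Fbxw11 library than in every control library, Csf1r was lower, and the groups overlapped for Cd68. Over all genes tested, the groups did not overlap, in either direction, for 31.1%. The part of the summed marker level in the rises of complement genes was not tested. Of 19 markers of other cell types, 15 stayed below 1 FPKM in every library, 6 of them at 0 (Cd3g, Cd8a, Col3a1, Hbb-bs, S100a9 and Ly6g), and none of the 4 that were tested was called. Their summed level was 8.25 to 9.01 FPKM in control and 8.02 to 10.5 FPKM in Fbxw11 libraries. In such bulk samples a change in the share of cells that express a gene cannot be told apart from a change in RNA per cell. A principal component with 23.7% of the variance separated the libraries numbered 3 of both groups from the other 4. Both were kept, and the rises of C3ar1, C5ar1 and Cfp were also called without them.

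**Figure D1:**
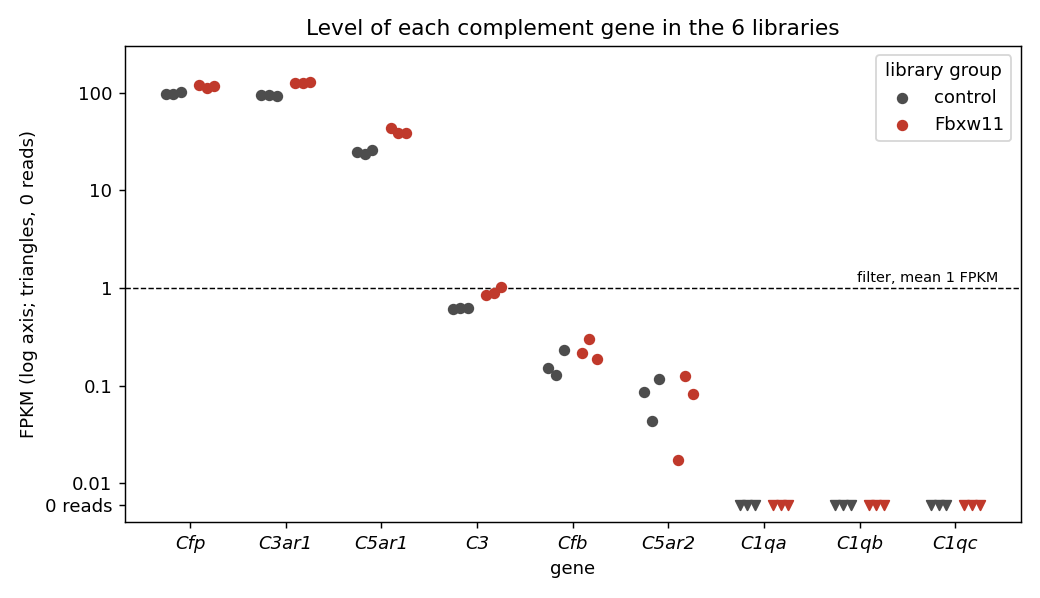
FPKM of the 9 complement genes in each of the 6 libraries, on a log axis, with grey points for control and red points for Fbxw11 libraries and triangles for libraries with 0 reads. Cfp, C3ar1 and C5ar1 lie far above the dashed filter at a mean of 1 FPKM, and the C1q genes have no reads. C3 lies under the line except in Fbxw11 library 3, which is at 1.03 FPKM.

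The test took genes whose mean over the 6 libraries reached 1 FPKM, which left 3 of the 9 complement genes, and each of the 3 was far above 1 FPKM in the control libraries as well. All 3 rose in limma's test with Benjamini-Hochberg adjustment over 10898 genes at a threshold of 0.05. Over all genes tested, 9.24% were called, 4.6% as rises and 4.64% as falls. The median log2 fold change of the 3 was 0.43, against 0.00 for all genes tested. The split of calls over all genes moved with the scaling, from 49.8% rises as reported to 32.8% on the TPM scale, 35.5% over plain read sums and 56.2% with libraries centred on their median, while these 3 genes rose on each scale.

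C3ar1 encodes the receptor for the C3 fragment C3a. It stood at 95.1, 94.6 and 91.3 FPKM in control libraries 1 to 3 and at 127, 125 and 127 FPKM in Fbxw11 libraries 1 to 3. The gap between the groups was wider than the range within either. Every Fbxw11 library lay above every control library, which held for 15.6% of tested genes. The means were 93.7 ± 2.08 and 126 ± 1.05 FPKM, a log2 fold change of 0.43 (SE 0.030, 95% interval 0.36 to 0.50, limma adjusted p = 0.00102). These values rest on 6663 to 7827 reads in each control library and 8879 to 9617 in each Fbxw11 library, so counting error was small. C3ar1 ranked 378 of the 10898 tested genes by mean FPKM. Its fold change was higher than that of 98.4% of them and was the 111th largest among 501 rises. The file places the gene on chromosome 6 at 122824097 to 122833120, in its own coordinates. Positions from the file cannot be compared with those of the promoters, which are on GRCm38.p6.

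C5ar1 encodes the classical receptor for C5a, which draws neutrophils and monocytes to sites of complement activation. It stood at 24.8, 23.5 and 25.7 FPKM in control libraries 1 to 3 and at 43.1, 38.4 and 38.3 FPKM in Fbxw11 libraries 1 to 3. Fbxw11 library 1 was the highest, and the others of that group were close together and also above each control library. Such an upward separation held for 15.6% of tested genes. The means were 24.7 ± 1.13 and 39.9 ± 2.73 FPKM, a log2 fold change of 0.67 (SE 0.058, 95% interval 0.53 to 0.81, limma adjusted p = 0.00179). Reads numbered 1050 to 1159 per control library and 1675 to 1803 per Fbxw11 library. Without Fbxw11 library 1 the log2 fold change was 0.62, the lowest of all alternatives tried, and the call was kept. C5ar1 had the largest change of the 3, higher than that of 99.6% of tested genes and 31st among the rises, from a level that ranked 1578 by mean FPKM. It is placed on chromosome 7 at 15980668 to 15993465.

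Cfp encodes properdin, the positive regulator of the alternative pathway that leukocytes store and release. It stood at 97.4, 95.7 and 101 FPKM in control libraries 1 to 3 and at 120, 113 and 118 FPKM in Fbxw11 libraries 1 to 3. The groups did not overlap, though the spread within each was larger relative to the shift than for C3ar1. Every Fbxw11 library above every control library was seen for 15.6% of tested genes. The means were 98.2 ± 2.92 and 117 ± 3.86 FPKM, a log2 fold change of 0.25 (SE 0.039, 95% interval 0.15 to 0.34, limma adjusted p = 0.0127), with between 2782 and 3488 reads per library. The call was lost without control library 1 (adjusted p = 0.0586) and without control library 2 (adjusted p = 0.0639), with log2 fold changes of 0.24 and 0.23. Its fold change was higher than that of 94.7% of tested genes but only the 302nd largest among the 501 rises. Cfp ranked 386 by mean FPKM. The gene is placed on chromosome X at 20791693 to 20797794.

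**Figure D2:**
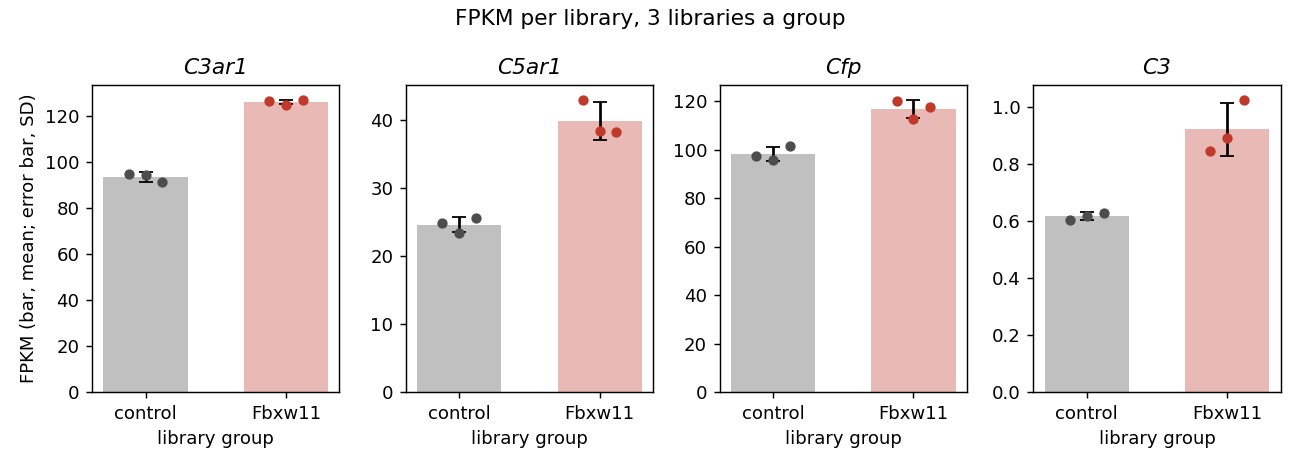
FPKM per library (points), mean (bars) and SD (error bars, n = 3) of C3ar1, C5ar1, Cfp and C3 in control and Fbxw11 libraries, each panel with its own axis from 0. In each of the 4 panels every Fbxw11 library lies above every control library, and only C3 stays near or under 1 FPKM. Such a separation held for 15.6% of tested genes, and for 5.74% of genes with a mean of 0.1 to 1 FPKM, where C3 lies.

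Ratios between these genes within a library do not depend on how libraries are scaled. C5ar1 stood at 0.261, 0.248 and 0.282 of the C3ar1 level in control libraries 1 to 3 and at 0.340, 0.307 and 0.301 in Fbxw11 libraries 1 to 3. The ratio was thus higher in each Fbxw11 library, by 0.26 on the log2 scale. C5ar1 relative to Cfp was 0.251 ± 0.00532 in control and 0.342 ± 0.0168 in Fbxw11 libraries, 0.44 higher on the log2 scale, and again the groups did not overlap. C3ar1 relative to Cfp was 0.955 ± 0.0478 in control and 1.082 ± 0.0288 in Fbxw11 libraries, 0.18 higher on the log2 scale. Cfp was therefore the most abundant of the 9 genes in each control library and C3ar1 in each Fbxw11 library. For each of the 3 ratios an exact two-sided permutation test over libraries gave p = 0.10, also after Benjamini-Hochberg adjustment over the 3, which is the smallest value that 3 libraries against 3 allow. With this number of libraries the permutation test therefore cannot place these differences in ratio past 0.05, and no other test was run on them. For single genes, the groups did not overlap, in either direction, for 31.1% of those tested. The share over other pairs of genes was not computed, so the separation of these ratios has no background to be read against.

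**Figure D3:**
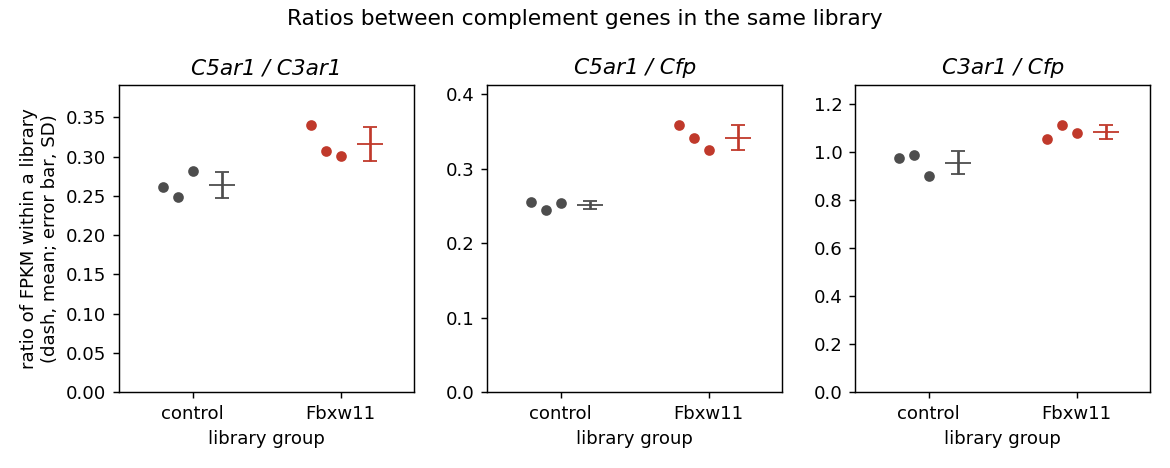
Ratio of FPKM between pairs of complement genes within each library (points), with mean and SD (n = 3), for control and Fbxw11 libraries on axes from 0. In all 3 pairs the Fbxw11 libraries lie above the control libraries, and C3ar1 relative to Cfp passes from below 1 to above 1.

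C3, the component on which all activation routes converge, stood at 0.603, 0.617 and 0.631 FPKM in control libraries 1 to 3 and at 0.848, 0.893 and 1.03 FPKM in Fbxw11 libraries 1 to 3. All Fbxw11 libraries lay above all control libraries, and Fbxw11 library 3 alone reached 1 FPKM. The means were 0.617 ± 0.0138 and 0.923 ± 0.0932 FPKM, a ratio of 1.496, from 51 to 61 reads per control library and 71 to 90 per Fbxw11 library. Of 5485 genes with a mean between 0.1 and 1 FPKM, 5.74% had every Fbxw11 library above every control library. The mean lay under the filter, so C3 was not part of the main test, and the exact two-sided permutation test gave p = 0.10, the smallest possible. With the filter lowered to a mean of 0.1 FPKM, limma's adjusted p for C3 was 0.102 (5.16% of 16383 genes called). It was 0.191 with no filter (2.36% called) and 0.0510 for voom, limma's test on recovered reads, at the lower filter (8.92% called). C3 is therefore not counted as a rise. It is placed on chromosome 17 at 57510970 to 57535136.

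Cfb, the gene of factor B, was listed at 0.151, 0.129 and 0.230 FPKM in control and 0.217, 0.297 and 0.187 FPKM in Fbxw11 libraries 1 to 3, from 7 to 15 reads per library. The groups overlapped (exact two-sided permutation p = 0.30). C5ar2, the gene of the other C5a receptor, which does not couple to G proteins, was listed at 0.0854, 0.0438 and 0.116 FPKM in control and 0.0172, 0.126 and 0.0824 FPKM in Fbxw11 libraries, from 1 to 8 reads. Its groups overlapped as well (exact two-sided permutation p = 0.90). No difference in Cfb or C5ar2 was detected at this depth, and so few reads do not show that the groups are alike. In the coordinates of the file C5ar2 ends 2588 bases from C5ar1 on the same strand of chromosome 7, so these neighbours stood at very unlike levels, 24.7 and 0.0817 FPKM in control libraries.

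The C1q subunit genes C1qa, C1qb and C1qc encode the chains that assemble into C1q, the recognition molecule of the classical pathway. They lie beside each other on chromosome 4, with 3616 bases between C1qb and C1qc and 2851 bases between C1qc and C1qa. Each was listed at 0 in each of the 6 libraries. A count of 0 allows up to 3 reads per library, which corresponds to 0.0808 to 0.177 FPKM depending on gene length and library, for counting error only. No fold can be given for them. The cells were thus without detectable C1q transcripts in both groups, while other macrophage genes such as Csf1r stood at 154 ± 4.32 and 147 ± 2.43 FPKM.

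The rest of the complement system was read from a list of 45 other genes, of which 10 were tested. Of these 2 rose, 1 fell and 7 were not called, with a median log2 fold change of 0.05, where 9.24% of all genes tested were called. The 3 called genes encode receptors, a class with 5 tested genes, and whether roles differ was not tested. Itgam, the alpha chain of complement receptor 3, rose from 19.8 ± 0.746 FPKM in control to 27.9 ± 1.22 FPKM in Fbxw11 libraries (0.47 on the log2 scale, SE 0.046, limma adjusted p = 0.00274). Itgax, the alpha chain of complement receptor 4, rose from 0.958 ± 0.138 FPKM in control to 1.74 ± 0.157 FPKM in Fbxw11 libraries (1.81-fold in mean FPKM, 0.48 on the log2 scale, limma adjusted p = 0.0198). Itgax passed the filter on low values through its level in the Fbxw11 libraries, and its call was lost under 8 of 19 alternatives. Itgb2, the beta chain that both integrins share, stood at 87.3 ± 3.43 and 81.9 ± 4.01 FPKM in control and Fbxw11 libraries (adjusted p = 0.297), with overlapping groups. Lrp1, a large endocytic receptor that takes part in the uptake of C1q-coated cells, stood at 47.2 ± 1.33 FPKM in control and fell to 40.3 ± 1.61 FPKM (SE 0.041 on a log2 fold change of -0.22, limma adjusted p = 0.0215), which was not called under 7 of 20 alternatives. The count of 3 became 1, Itgam, without control library 1, control library 3, Fbxw11 library 2, Fbxw11 library 3 or both libraries numbered 3.

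Among tested genes that were not called, the most abundant were Calr, Itgb2 and C1qbp. Calr, the chaperone calreticulin that also binds C1q at the cell surface, stood at 517 ± 20.8 and 554 ± 8.39 FPKM (adjusted p = 0.185). C1qbp, a mitochondrial protein also described as a binder of C1q, stood at 60.4 ± 4.70 and 59.3 ± 0.590 FPKM (adjusted p = 0.836). Over the 7 genes not called, log2 fold changes ranged from -0.09 to 0.17. By role, 2 of 16 classical and lectin pathway genes, 3 of 13 regulators and 0 of 7 terminal pathway genes reached the filter, and none of the 5 was called. The alternative pathway enzyme on the list, Cfd or factor D, did not reach it. Of the 35 genes under the filter, 12 had 0 reads in every library and 18 more stayed below 0.5 FPKM in every library.

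**Figure D4:**
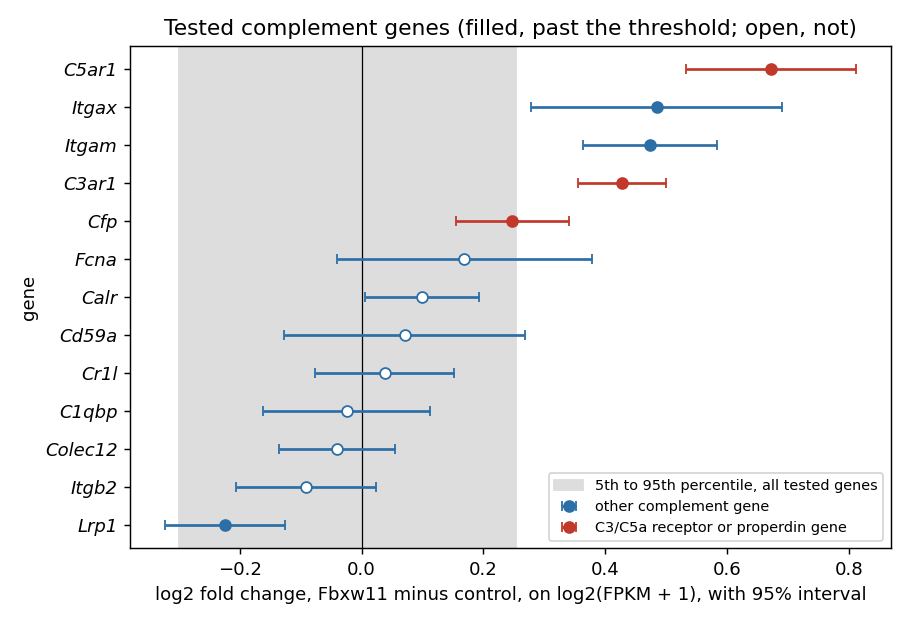
Log2 fold change (Fbxw11 minus control, on log2(FPKM + 1)) with 95% interval of the 13 complement genes tested, red for C3ar1, C5ar1 and Cfp and blue for the others, filled where called. The grey band spans the 5th to 95th percentile of all tested genes, -0.30 to 0.25, and C5ar1, Itgax, Itgam and C3ar1 lie to the right of it with their whole intervals.

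For each of the 3 tested genes, the protein-coding genes with the most similar profile were found as those with the smallest root mean square distance over the 6 centred log2(FPKM + 1) values, among 9525 genes. For C3ar1 they were Src, the gene of a tyrosine kinase, at a distance of 0.020, and Oasl1, an interferon-induced gene, at 0.030. Src stood at 1.77 ± 0.0367 and 2.70 ± 0.0912 FPKM, control before Fbxw11. For C5ar1 they were Gbp5, an interferon-induced GTPase gene, at 0.039, and Slc15a3, a lysosomal peptide and histidine transporter gene, at 0.049. Gbp5 stood at 1.41 ± 0.00433 and 2.81 ± 0.299 FPKM, and Slc15a3 at 123 ± 5.08 and 186 ± 6.02 FPKM. Src and Gbp5 were low, and log2(FPKM + 1) understates changes of low genes. Their ratios of FPKM between groups were therefore less like those of C3ar1 and C5ar1 than the distances are. For Cfp they were Wsb2, a WD-repeat and SOCS box gene, at 0.011, and Tnfrsf1a, the gene of TNF receptor 1, at 0.013. Tnfrsf1a stood at 21.1 ± 0.491 and 25.0 ± 0.713 FPKM. The distances are descriptions over 6 libraries in 2 groups, and a gene with a like shift between groups is close by construction.

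**Figure D5:**
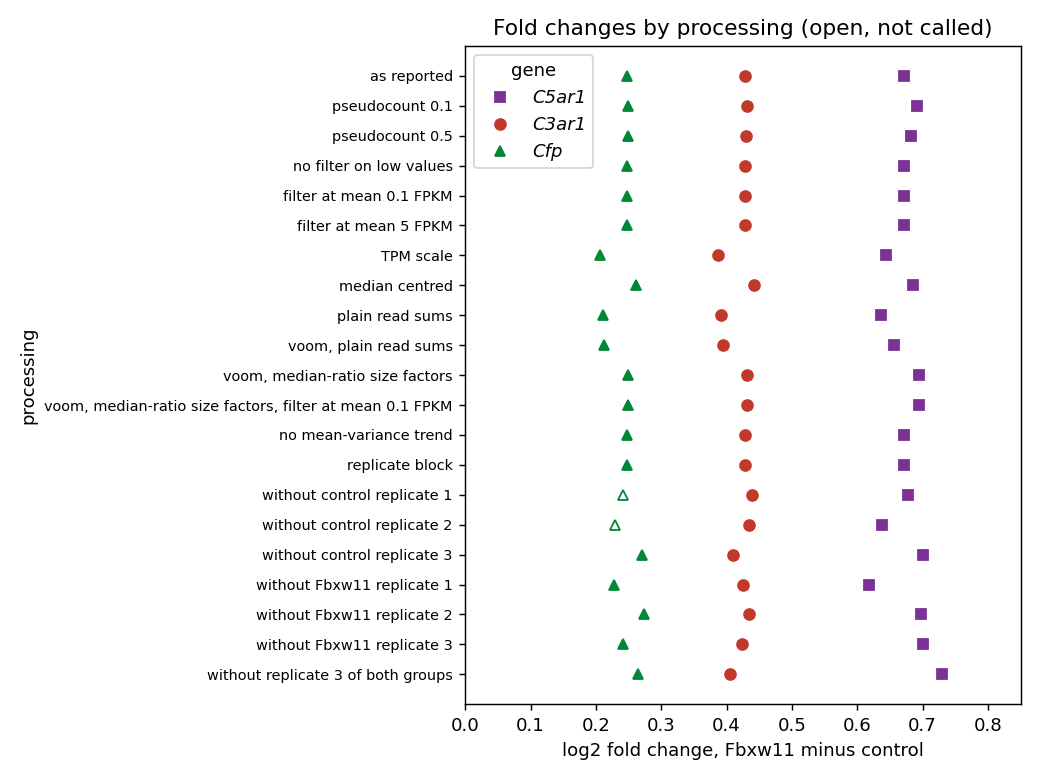
Log2 fold change of C5ar1, C3ar1 and Cfp (Fbxw11 minus control) under each way of processing, on log2(FPKM + pseudocount) or, for voom, on log2 reads scaled to library size, with open symbols where the gene was not called. C5ar1 ranges from 0.62 to 0.73, C3ar1 from 0.39 to 0.44 and Cfp from 0.21 to 0.27, and Cfp is open without control library 1 or control library 2.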

How the data were processed

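The authors deposited FPKM per gene and library, per the file's name. Per the submitters' processing notes the build is mm10. Compared with a GENCODE annotation of mm10, 2.85% of 52088 shared gene identifiers had identical coordinates and 96.8% an identical span. Most coordinates in the file therefore do not follow mm10, and the build that they follow is not stated. For the aligner, counter and annotation release the sources used here give nothing. FPKM times gene length gave whole reads (100% of values within 0.02 reads). The library size the authors divided by was 1.01 to 1.02 times the read sum in control and 0.987 to 0.993 times in Fbxw11 libraries, which raised FPKM in the latter. No library was a copy of another (chi-square over genes of 2.42 to 5.86 per degree of freedom for pairs of a group).

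Values were analysed as log2(FPKM + 1), which understates changes of low genes, for genes averaging 1 FPKM or more. The test was limma 3.58.1 in R 4.3.3 (mean-variance trend, two-sided, no covariate, Benjamini-Hochberg over all genes tested, threshold 0.05). The code was also run on simulated data, and no result above rests on that run. It drew independent libraries with the same dispersion for every gene, so it lacked the component that set apart the libraries numbered 3. The members, lists and tests were chosen with earlier results of these data known. All 9 members are named. Of the other complement genes, those past the threshold and the 3 most abundant tested genes not past it are named, and outside this rule Cfd, as the single gene of its role, and Cr1l, for its change of sign, were named after their values were seen. Motifs were chosen after the gene values were seen. Promoters of 7 of the 9 members were matched in the RefSeq table by symbol. There were 19 alternatives planned and 1 added after seeing the data, voom at a mean of 0.1 FPKM. Exact permutation tests compared mean FPKM, or mean log2 ratios. Python 3.11.15 with scipy 1.17.1 was used.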

Additional observations from a re-analysis of the deposited data

How the results depend on the processing

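C3ar1 and C5ar1 rose under all 20 alternatives, with adjusted p up to 0.0111 and 0.0136. Cfp rose under 18 of 20, from 0.21 on the TPM scale to 0.27, and its 2 lost calls are those given above. With a single library left out, 2 to 3 of the 9 members and 1 to 2 of the other complement genes were called, and 410 to 801 of all genes. Over all genes, 1007 were called as reported, 596 with no filter and 1559 with voom over plain read sums. Correlations of deviations between control and Fbxw11 libraries of the same number were 0.036, 0.041 and 0.189 for numbers 1 to 3. The value for number 3 was the highest of all pairs, and the other pairs with a library numbered 3 ranged from -0.162 to -0.053. Control library 1 correlated best with Fbxw11 library 2 (0.148). With the replicate block 621 genes were called in all, with C3ar1, C5ar1 and Cfp among them, and 1 of the other complement genes. Without both libraries numbered 3, 1 of the other complement genes was called. Among genes not called, Cr1l turned sign on the TPM scale (-0.0035) and without Fbxw11 library 2 (-0.00066), from 0.04, and C1qbp without control library 2 (0.020, from -0.02). With 1 library left out, Cr1l ranged from -0.00066 to 0.066 and C1qbp from -0.088 to 0.020. The cause of these shifts was not tested. edgeR was not run, since FPKM is not a count. Depth limits Cfb, C5ar2 and the C1q genes to the statements given, and p-values for C3 miss the threshold without showing that the groups are alike.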

Other observations

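The B lymphocyte markers Cd79a and Ms4a1 were present at a low level in both groups. With control given before Fbxw11 libraries, Cd79a stood at 2.33 ± 0.173 and 1.997 ± 0.642 FPKM and Ms4a1 at 1.17 ± 0.0617 and 0.932 ± 0.171 FPKM. The neutrophil marker S100a8 stood at 3.34 ± 0.759 and 4.49 ± 1.18 FPKM, while its usual partner S100a9 was listed at 0 in every library. None of Cd79a, Ms4a1 and S100a8 was called, and S100a9 was not tested.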
